A study of Mus musculus with 15 samples.

Results

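The genes described here are interferon-stimulated genes and immunity GTPases of the mouse, measured in CD4 T helper cells of 3 kinds called Tfh, Th17 and Th1. They were chosen by gene symbol, as 55 of the 27179 gene IDs in the count table, and all 55 symbols were matched. Of these, 36 were grouped as antiviral genes, 15 as GTPases and 4 as genes of antigen presentation by major histocompatibility complex (MHC) class I. Within the antiviral genes, 5 are viral RNA sensors with a stress kinase, 5 are oligoadenylate synthetases, 17 are restriction effectors and 9 belong to the ISG15, ubiquitin and ADP-ribose enzymes. The GTPases are 8 guanylate-binding proteins (GBPs) and 7 immunity-related GTPases (IRGs).

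Interferons signal through Janus kinases to STAT proteins. Type I interferons act mainly through STAT proteins joined with IRF9 on promoter elements called ISREs, and interferon gamma acts mainly through pairs of STAT proteins on elements called GAS. Antiviral genes detect foreign RNA or block steps of viral growth, whereas GBPs and IRGs assemble on pathogen vacuoles and on the cell's own membranes. Th1 cells are known for making interferon gamma, Th17 cells for making the IL-17 cytokines, and Tfh cells for helping B cells in follicles.

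Each condition was measured in 5 bulk RNA-seq libraries of sorted cells. All 3 conditions started from naive CD4 T cells of one genotype, B6.Cg-Ifngtm3.1Lky-Il17atm1.1Lky, whose name gives targeted alleles of Ifng and Il17a. All were stimulated for 3.5 days on plate-bound antibodies to CD3 and CD28. Tfh cells were sorted as CXCR5 positive and IL-17A negative, and Th1 cells as positive for interferon gamma. Which gate gave the Th17 cells, how old the mice were and which cytokines the cultures received is not stated in the sources. No control cultures without a helper cell fate are among the libraries. All cells thus came from cultures of purified T cells, not from an infection. The smallest library, Tfh replicate 1, held 4.87 M counted reads, the largest, Th1 replicate 3, held 25.2 M, and the median library held 10.5 M. Levels are CPM, that is counts per M of a library's counts after scaling, given as mean ± SD of 5 libraries. A gene was called where its edgeR quasi-likelihood p, adjusted by the Benjamini-Hochberg method over 12591 genes, was under 0.05. Since no label ties replicates to different mice or cultures, the p-values cover the spread of these libraries alone, which may be technical.

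The labels were checked against lineage markers. The summed level of 5 Th1 markers was 18 to 32.9 CPM in Tfh, 56.8 to 84 CPM in Th17 and 2462 to 2895 CPM in Th1 libraries. The summed level of 5 Tfh markers was 1627 to 2133 CPM in Tfh, 1296 to 1680.5 CPM in Th17 and 511 to 708 CPM in Th1 libraries, and that of 5 Th17 markers was 4045 to 5834 CPM in Tfh, 11099 to 12774 CPM in Th17 and 43.6 to 85.5 CPM in Th1 libraries. The Th1 and Th17 lists were highest in the condition they name, without overlap. The Th1 list holds Ifng, the Th17 list Il17a and the Tfh list Cxcr5, genes whose products were used in sorting. These sums are thus partly set by the sort and are no independent check of the labels. The Tfh list overlapped between Tfh and Th17 libraries, and the Tfh libraries also held Th17 markers far above the Th1 libraries.

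Promoter stretches of 9 members are shown because they hold the interferon elements named above and belong to the GTPases and antiviral genes whose levels follow. Each runs from 130 bases before the RefSeq start to base 9 after it, 5′ to 3′ on the gene's own strand, and capitals mark ISRE letters (GAAA, any 2 bases, GAAA) and GAS letters (TTCNNNGAA) found on either strand. The sequences are from RefSeq on build GRCm38.p6.
Igtp: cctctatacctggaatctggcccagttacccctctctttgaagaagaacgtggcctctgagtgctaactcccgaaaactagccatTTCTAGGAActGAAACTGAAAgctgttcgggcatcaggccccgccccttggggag
Irgm2: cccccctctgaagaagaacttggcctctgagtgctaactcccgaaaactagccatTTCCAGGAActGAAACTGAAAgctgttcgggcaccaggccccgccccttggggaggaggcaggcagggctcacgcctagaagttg
Tgtp1: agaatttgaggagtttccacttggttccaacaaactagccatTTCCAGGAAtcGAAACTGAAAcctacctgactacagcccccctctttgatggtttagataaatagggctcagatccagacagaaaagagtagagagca
Tgtp2: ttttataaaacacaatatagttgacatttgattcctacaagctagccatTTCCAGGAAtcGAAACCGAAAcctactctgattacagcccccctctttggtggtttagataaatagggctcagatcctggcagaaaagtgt
Irgm1: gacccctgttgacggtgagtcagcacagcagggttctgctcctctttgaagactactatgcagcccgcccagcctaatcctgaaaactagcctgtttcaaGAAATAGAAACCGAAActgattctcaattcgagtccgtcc
Gbp2: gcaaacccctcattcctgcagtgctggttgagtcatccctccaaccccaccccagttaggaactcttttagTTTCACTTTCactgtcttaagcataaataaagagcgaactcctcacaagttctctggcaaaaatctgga
Gbp7: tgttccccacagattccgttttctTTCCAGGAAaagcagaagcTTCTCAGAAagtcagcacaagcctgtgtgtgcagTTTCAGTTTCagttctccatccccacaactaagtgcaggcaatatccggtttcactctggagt
Oas3: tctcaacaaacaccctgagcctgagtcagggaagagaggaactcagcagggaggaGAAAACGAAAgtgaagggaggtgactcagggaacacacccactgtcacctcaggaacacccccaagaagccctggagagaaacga
Isg15: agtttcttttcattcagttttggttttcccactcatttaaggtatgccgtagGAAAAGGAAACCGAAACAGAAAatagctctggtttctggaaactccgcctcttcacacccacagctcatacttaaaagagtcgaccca

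The stretches lie at chr11:58199426-58199565 for Igtp (plus strand), chr11:58214847-58214986 for Irgm2 (plus strand), chr11:48992237-48992376 for Tgtp1 (minus strand), chr11:49064203-49064342 for Tgtp2 (minus strand) and chr11:48871411-48871550 for Irgm1 (minus strand). The others lie at chr3:142620533-142620672 for Gbp2 (plus strand), chr3:142530206-142530345 for Gbp7 (plus strand), chr5:120777650-120777789 for Oas3 (minus strand) and chr4:156200809-156200948 for Isg15 (minus strand). In Igtp, Irgm2, Tgtp1 and Tgtp2 a GAS match starts 11 bases before an ISRE match. That spacing was noticed in these windows and then counted, and it occurs in 5 of all 32851 promoter windows of 250 bases before to 50 bases after a start, of which these are 4. The Igtp and Irgm2 stretches are nearly the same around these letters, and Tgtp1 and Tgtp2 are near-identical genes. The 4 windows are therefore not independent occurrences. Gbp7 holds 2 GAS matches ahead of its ISRE match, and neighbouring matches among the 3 ISRE matches of Isg15 overlap.

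The sequence tables held 45 such windows for 37 of the 55 members, since some genes have several starts. The ISRE letters were found in 20 of the 45 windows (44.4%), against 3.44% of all 32851 windows. The GAS letters were found in 14 of the 45 (31.1%), against 8.3% of all windows. By class, 9 of 11 GTPase windows (81.8%) and 11 of 32 antiviral windows (34.4%) held ISRE letters. GAS letters were found in 6 of 11 GTPase windows (54.5%) and 8 of 32 antiviral windows (25.0%). Counted by gene, 9 of 10 GTPases and 11 of 25 antiviral genes with a window held ISRE letters. GAS letters were held by 6 and 8 of these genes. The GTPases Gbp4, Gbp6, Gbp8, Gbp9 and Iigp1 had no window. Neither motif was found in the 2 antigen presentation windows or in that of Ifi47, which says only that these letters are not there. A match of letters is a description and not a site shown to be bound.

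Most of these genes were lower in Tfh and in Th17 cells than in Th1 cells, while most did not differ by the test between Tfh and Th17 cells. The low-count filter was passed by 45 members, namely 26 antiviral genes, all 15 GTPases and all 4 antigen presentation genes. Between Tfh and Th1 cells, 30 of the 45 were lower in Tfh, 8 were higher and 7 were not called, while 49.3% of all genes tested were called (25.2% lower and 24.1% higher). Between Th17 and Th1 cells, 27 were lower in Th17, 3 were higher and 15 were not called, against 36.9% of all genes called (17.8% lower and 19.0% higher). Libraries did not overlap for 29 of the 45 between Tfh and Th1 cells, against 34.3% of all genes, and for 28 of the 45 between Th17 and Th1 cells, against 28.8%. In bulk samples, fewer cells that express a gene and less RNA per cell cannot be told apart.

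Taken by class, 16 of 26 antiviral genes tested were lower in Tfh than in Th1 cells and 5 were higher, with a median log2 fold change of -0.86. Of the 15 GTPases, 12 were lower and 2 were higher, with a median of -1.87. Of the 4 antigen presentation genes, 2 were lower and 1 was higher, with a median of -1.04. In Th17 against Th1 cells, 16 antiviral genes were lower and 1 was higher (median -0.81), 9 GTPases were lower and 2 were higher (median -1.54), and 2 antigen presentation genes were lower and none was higher (median -1.09). The median over all genes tested was -0.01 for Tfh over Th1 and 0.03 for Th17 over Th1. These medians cover only genes that passed the filter, which a gene can pass through the condition where it is high.

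**Figure D1:**
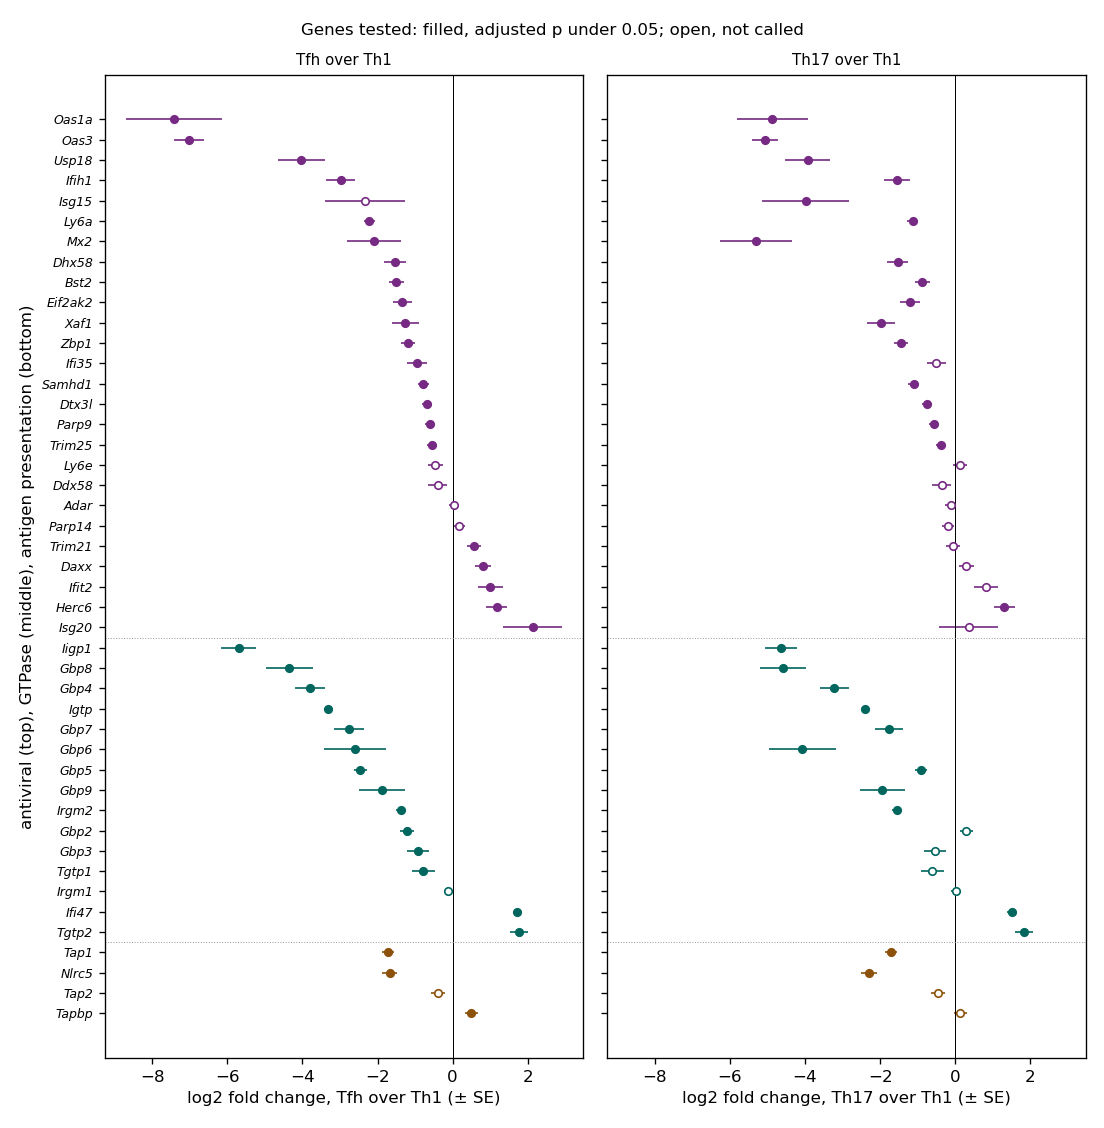
Log2 fold changes of the 45 members tested, Tfh over Th1 (left) and Th17 over Th1 (right), with the standard error as a bar; filled points passed the edgeR test at an adjusted p under 0.05. Most points lie left of 0, where Th1 cells were higher. Ifi47, Tgtp2 and Herc6 lie to the right and are filled in both panels. Isg20, Ifit2, Daxx and Tapbp also lie to the right in both panels but are filled only in the left.

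Among the viral RNA sensors, 4 of 5 were lower in Tfh than in Th1 cells and 4 of 5 were lower in Th17 than in Th1 cells. The called share was 80.0% in each, beside 49.3% and 36.9% of all genes tested. Ifih1, which encodes MDA5, a sensor of long double-stranded RNA, had 1.16, 2.12, 1.63, 1.69 and 2.27 CPM in the Tfh libraries, 1.87, 4.87, 4.33, 3.2 and 9.85 CPM in the Th17 libraries, and 16.1, 15.3, 8.9, 12.8 and 18 CPM in the Th1 libraries. Th1 libraries were all above the Tfh libraries, and Th17 replicate 5 reached into the Th1 range. The gene was 7.86-fold lower in Tfh than in Th1 cells (log2 fold change -2.97, SE 0.39, edgeR adjusted p = 3.89e-06) and 2.92-fold lower in Th17 than in Th1 cells (log2 fold change -1.54, SE 0.35, edgeR adjusted p = 0.00195). Dhx58, which encodes LGP2, a regulator of MDA5 signalling, had 5.8, 3.25, 6.7, 3.98 and 3.36 CPM in the Tfh libraries, 4.8, 4.45, 5.52, 5.94 and 2.35 CPM in the Th17 libraries, and 9.81, 15.1, 12.2, 16.2 and 13.5 CPM in the Th1 libraries. Its Th1 libraries overlapped neither other condition, with log2 fold changes of -1.53 ± 0.29 (SE) for Tfh over Th1 and -1.53 ± 0.29 (SE) for Th17 over Th1 (edgeR adjusted p = 0.000237 and 0.000335).

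Zbp1, a sensor of Z-form nucleic acid that can trigger necroptosis, had 45, 56.9, 61.2, 54.5 and 41.1 CPM in the Tfh libraries, 41.4, 45.8, 40.4, 49.8 and 40.1 CPM in the Th17 libraries, and 81, 106, 162, 144 and 94.7 CPM in the Th1 libraries. All Th1 libraries were above all others, and the gene was 2.27-fold lower in Tfh than in Th1 cells (log2 fold change -1.19, SE 0.18, edgeR adjusted p = 2.5e-05). Zbp1 was also 2.71-fold lower in Th17 than in Th1 cells (log2 fold change -1.44, SE 0.18, edgeR adjusted p = 4.61e-06). Eif2ak2, which encodes the RNA-activated kinase PKR, averaged 21.7 ± 9.18 CPM in Tfh, 23.7 ± 5.59 CPM in Th17 and 54.6 ± 16.3 CPM in Th1 cells and was lower in both comparisons with Th1 (edgeR adjusted p = 0.000383 and 0.00132). Ddx58, which encodes the sensor RIG-I, averaged 19 ± 8.47 CPM in Tfh, 19.6 ± 2.35 CPM in Th17 and 25.2 ± 4.22 CPM in Th1 cells and was not called in any comparison, though in 2 of 25 alternative settings it was lower in Tfh than in Th1 cells. One of these left out Tfh replicate 2 (log2 fold change -0.64, edgeR adjusted p = 0.0403).

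The oligoadenylate synthetases make the messenger that activates RNase L, and 2 of the 5, Oas3 and Oas1a, passed the low-count filter. Oas3 (chromosome 5, 120753098 to 120777684 on GRCm38) had 0.193, 1.27, 0.327, 0.896 and 0.494 CPM in the Tfh libraries, 1.99, 3.7, 1.78, 2.45 and 2.53 CPM in the Th17 libraries, and 44.6, 64.5, 101, 129 and 77.1 CPM in the Th1 libraries. No library of one condition overlapped another. It was 129.5-fold lower in Tfh than in Th1 cells (log2 fold change -7.02, SE 0.4, edgeR adjusted p = 5.11e-11). Oas3 was also 33.5-fold lower in Th17 than in Th1 cells (log2 fold change -5.07, SE 0.34, edgeR adjusted p = 8.11e-10). Between the other 2 conditions it was 3.87-fold lower in Tfh than in Th17 cells (log2 fold change -1.95, SE 0.42, edgeR adjusted p = 0.00329). The last of these was not called with limma-voom.

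Oas1a had 0 counts over the Tfh libraries, 3 over the Th17 libraries and 128 over the Th1 libraries. It was thus at least 28.5-fold lower in Tfh than in Th1 cells, with the floor set at 3 counts for all libraries of a condition, and 33.7-fold lower in Th17 than in Th1 cells (95% interval 11.3 to 166, for counting error only). All of its Th17 counts came from replicate 5, and 57.6% of its 50-base words also occur in Oas1g. Oas2, Oasl1 and Oasl2 did not pass the filter. Over the Tfh, Th17 and Th1 libraries Oas2 had 0, 8 and 48 counts, Oasl1 had 0, 1 and 29 counts, and Oasl2 had 14, 18 and 76 counts. All 8 Th17 counts of Oas2 were in replicate 5, and 12 of the 14 Tfh counts of Oasl2 were in replicate 1.

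Of 10 restriction effectors tested, 6 were lower and 2 were higher in Tfh than in Th1 cells, and 5 were lower and none was higher in Th17 than in Th1 cells. Restriction effectors act on viral particles, genomes or transcripts, but the genes were grouped by list, which does not show such a role for each, Ly6a included. Ly6a had the highest level per kb of exon of all members in each condition. Ly6a, which encodes the surface protein Sca-1, had 485, 646, 549, 608 and 553 CPM in the Tfh libraries, 1013, 1319, 1031, 1475 and 1195 CPM in the Th17 libraries, and 2139.5, 2802, 3306, 2756 and 2252 CPM in the Th1 libraries. The conditions did not overlap, and the order was Tfh, Th17, Th1 from low to high. Ly6a was 4.67-fold lower in Tfh than in Th1 cells (log2 fold change -2.22, SE 0.15, edgeR adjusted p = 4.79e-10). Ly6a was also 2.2-fold lower in Th17 than in Th1 cells (log2 fold change -1.14, SE 0.14, edgeR adjusted p = 3.91e-06). Between the other 2 conditions it was 2.12-fold lower in Tfh than in Th17 cells (log2 fold change -1.09, SE 0.14, edgeR adjusted p = 3.53e-05). Of its 50-base words, 19.0% occur in other genes, most of them in Ly6c1.

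Ly6e, a membrane protein that limits entry of some viruses, had 664, 616, 738, 943 and 791 CPM in the Tfh libraries, 949.7, 1012, 1019.6, 1503 and 1178 CPM in the Th17 libraries, and 655, 889, 1512, 1295 and 830.1 CPM in the Th1 libraries. Unlike Ly6a, which lies near it on chromosome 15, it was not called between Th17 and Th1 cells (log2 fold change 0.13, SE 0.2, edgeR adjusted p = 0.659). Its lower level in Tfh than in Th17 cells passed narrowly (log2 fold change -0.59, SE 0.2, edgeR adjusted p = 0.0491). The call was lost in 15 of 25 alternative settings, including without any 1 of 12 libraries, with adjusted p between 0.0501 and 0.131 (all except Th1 replicates 1 and 3 and Tfh replicate 4). Against Th1 cells it was not called (log2 fold change -0.47, SE 0.2, edgeR adjusted p = 0.0618), but it was in 10 of 25 settings, including without Th1 replicate 1 or 5, Th17 replicate 4 or Tfh replicate 4 (adjusted p 0.0124 to 0.039).

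Samhd1, which depletes the nucleotide pool that viruses need, had 1162, 1578, 1182, 1169 and 1031 CPM in the Tfh libraries, 949, 1294, 883, 874 and 875 CPM in the Th17 libraries, and 2323, 2247, 1965, 1866 and 2106 CPM in the Th1 libraries. Every Th1 library was above every other library. Samhd1 was 1.72-fold lower in Tfh than in Th1 cells (log2 fold change -0.78, SE 0.14, edgeR adjusted p = 0.000121). Samhd1 was also 2.16-fold lower in Th17 than in Th1 cells (log2 fold change -1.11, SE 0.14, edgeR adjusted p = 4.02e-06). Between Tfh and Th17 cells it was not called (log2 fold change 0.33, SE 0.14, edgeR adjusted p = 0.114). It was called in 4 of 25 alternative settings, including without Th17 replicate 2 (log2 fold change 0.45, adjusted p = 0.0235).

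Bst2, which encodes tetherin, had 33.6, 23.3, 23.4, 26 and 20.8 CPM in the Tfh libraries, 33.2, 28.8, 44.5, 42.4 and 46.2 CPM in the Th17 libraries, and 39, 70.5, 87.2, 89.7 and 70.3 CPM in the Th1 libraries. It was 2.82-fold lower in Tfh than in Th1 cells with no overlap (log2 fold change -1.5, SE 0.21, edgeR adjusted p = 1.1e-05) and 1.83-fold lower in Th17 than in Th1 cells with some overlap (log2 fold change -0.87, SE 0.21, edgeR adjusted p = 0.0027). Its lower level in Tfh than in Th17 cells was at the threshold (log2 fold change -0.62, SE 0.21, edgeR adjusted p = 0.0487). The call ended in 17 of 25 alternative settings, including without any 1 of 12 libraries, with adjusted p between 0.0509 and 0.129 (all except Th1 replicate 1, Th17 replicate 2 and Tfh replicate 1). Ifi35 and Xaf1 were also lower in Tfh than in Th1 cells, with log2 fold changes of -0.95 ± 0.26 (SE) and -1.26 ± 0.36 (SE) (edgeR adjusted p = 0.0051 and 0.00741). Xaf1 was lower in Th17 than in Th1 cells as well (log2 fold change -1.97, SE 0.37, edgeR adjusted p = 0.000344), whereas Ifi35 was not called there (log2 fold change -0.51, SE 0.25, edgeR adjusted p = 0.133). Ifi35 was called there in 4 of 25 settings, including without Th1 replicate 1 (adjusted p = 0.0463). A gene on the opposite strand overlaps 16.8% of the exon bases of Ifi35, so reads there cannot be told apart.

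Several effectors did not share this order. Isg20, an RNA exonuclease, had 2.51, 4.8, 2.53, 3.78 and 1.88 CPM in the Tfh libraries, 0.937, 0.212, 0.935, 0.471 and 1.92 CPM in the Th17 libraries, and 0, 1.55, 0.848, 1.01 and 0 CPM in the Th1 libraries. Its level was higher in Tfh than in Th1 cells and the libraries did not overlap (log2 fold change 2.13, SE 0.78, edgeR adjusted p = 0.0298), but without Th1 replicate 3 or 5 or Tfh replicate 2 or 4 the adjusted p was 0.0508 to 0.0709. Ifit2, which binds viral RNA, averaged 8.5 ± 2.56 CPM in Tfh, 7.49 ± 2.18 CPM in Th17 and 4.25 ± 1.7 CPM in Th1 cells and was higher in Tfh than in Th1 cells (log2 fold change 1.0, SE 0.33, edgeR adjusted p = 0.0156), a call lost without Tfh replicate 2 (adjusted p = 0.0566). Its difference between Th17 and Th1 cells was not called (log2 fold change 0.82, SE 0.32, edgeR adjusted p = 0.0544), but it was in 8 of 25 alternative settings, including without Th1 replicate 2, Th17 replicate 4 or Tfh replicate 1 (adjusted p 0.0255 to 0.0495). Adar, the RNA-editing enzyme, averaged 99.9 ± 13.3 CPM in Tfh, 89.5 ± 8.24 CPM in Th17 and 97.4 ± 17.7 CPM in Th1 cells and was not called in any comparison. A gene on the opposite strand overlaps 16.8% of the exon bases of Adar, so reads there cannot be told apart.

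Mx2, a dynamin-like gene that RefSeq annotates as a transcribed pseudogene, had 0, 0, 0.572, 0.896 and 0.593 CPM in the Tfh libraries, 0, 0, 0.085, 0 and 0.0871 CPM in the Th17 libraries, and 2.1, 1.84, 1.1, 1.94 and 2.81 CPM in the Th1 libraries. Against Th1 cells it was lower in Tfh (log2 fold change -2.09, SE 0.72, edgeR adjusted p = 0.023) and in Th17 cells (log2 fold change -5.3, SE 0.96, edgeR adjusted p = 0.000228), and the Tfh call was lost in 2 of 25 alternative settings, of which 1 left out Th1 replicate 5 (adjusted p = 0.0574). Its Tfh libraries held 22 counts and its Th17 libraries held 2, a 13.0-fold higher level in Tfh (95% interval 3.2 to 114, for counting error only). That difference was called (log2 fold change 3.21, SE 1.02, edgeR adjusted p = 0.0368), but 13 of 24 alternative settings ended the call, including limma-voom and leaving out any 1 of 9 libraries (all Th17 replicates, Tfh replicates 3, 4 and 5 and Th1 replicate 2, adjusted p 0.0512 to 0.0994).

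The other 7 restriction effectors had few counts. Ifit1, Ifit3, Mx1, Rsad2, Cmpk2, Rtp4 and Ifi44 did not pass the filter, and with Oas2, Oasl1 and Oasl2 they make up all 10 members that failed it. The highest mean of these 10 in any condition was 1.18 CPM, that of Oasl2 in Th1 cells. Rsad2, which encodes viperin, had 0 counts in Tfh and Th17 cells and 7 in Th1 cells, and Ifi44 had 0 in Tfh and Th17 cells and 26 in Th1 cells. Ifit1 had 22 counts over the Tfh, 19 over the Th17 and 51 over the Th1 libraries, and Cmpk2 had 30, 11 and 63 in the same order. Single libraries held many of these: 12 of the 22 Tfh counts of Ifit1 were in replicate 1, all 11 Th17 counts of Cmpk2 in replicate 3 and 39 of its 63 Th1 counts in replicate 3. Mx1 had 0, 8 and 29 counts in that order, and Rtp4 had 7, 12 and 3. Ifit3 had 6, 0 and 1 counts, and 51.2% of its 50-base words also occur in Ifit3b.

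**Figure D2:**
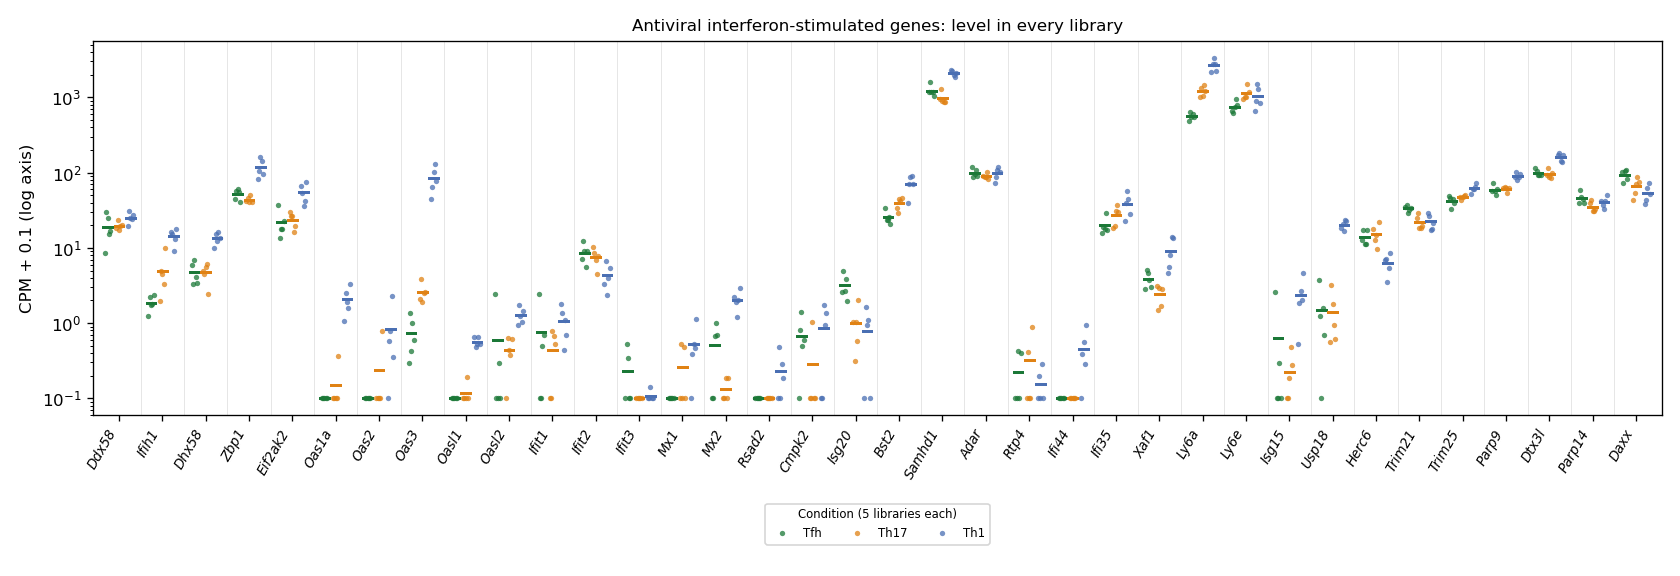
Levels of the 36 antiviral genes in each of the 15 libraries, as CPM plus 0.1 on a log axis; points are libraries, bars are means, and colours mark Tfh, Th17 and Th1 cells. Ly6a, Ly6e and Samhd1 stand at the top, while 10 genes lie near or below 1 CPM in all conditions.

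Of the 9 ISG15, ubiquitin and ADP-ribose enzymes, 4 were lower and 3 were higher in Tfh than in Th1 cells, and 5 were lower and 1 was higher in Th17 than in Th1 cells. The called shares were 77.8% and 66.7%, beside 49.3% and 36.9% of all genes tested. Isg15, the ubiquitin-like protein itself, had 2.51, 0, 0, 0.199 and 0 CPM in the Tfh libraries, 0, 0, 0.085, 0.377 and 0.174 CPM in the Th17 libraries, and 0.42, 1.74, 2.59, 1.94 and 4.51 CPM in the Th1 libraries. It was lower in Th17 than in Th1 cells (log2 fold change -3.98, SE 1.17, edgeR adjusted p = 0.0116), a value of -4.82 without Th17 replicate 4, which held 4 of the 7 Th17 counts. Between Tfh and Th1 cells it was not called (log2 fold change -2.33, SE 1.07, edgeR adjusted p = 0.0792). Tfh replicate 1 held 13 of the 15 Tfh counts, and without it the gene was called lower in Tfh (adjusted p = 0.000778), as in 2 of the other 24 alternative settings. Usp18, which removes ISG15 and dampens the type I receptor, had 3.67, 1.13, 0, 1.49 and 0.593 CPM in the Tfh libraries, 0.468, 3.07, 1.7, 0.848 and 0.523 CPM in the Th17 libraries, and 18.1, 20.4, 16.7, 23.6 and 22.6 CPM in the Th1 libraries. All Th1 libraries were far above the rest, and Usp18 was 16.4-fold lower in Tfh than in Th1 cells (log2 fold change -4.03, SE 0.63, edgeR adjusted p = 3.2e-05). Usp18 was also 15.2-fold lower in Th17 than in Th1 cells (log2 fold change -3.93, SE 0.61, edgeR adjusted p = 4.74e-05). Without Tfh replicate 1 the Tfh over Th1 value was -4.70.

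Herc6, the main enzyme in the mouse that attaches ISG15, had the opposite order. It had 12.8, 17.4, 11.1, 11 and 17.2 CPM in the Tfh libraries, 17.8, 12.6, 14.8, 9.42 and 21.8 CPM in the Th17 libraries, and 6.73, 7.06, 3.43, 5.35 and 8.43 CPM in the Th1 libraries. The Th1 libraries were all below the others, and Herc6 was higher in Tfh than in Th1 cells, by 2.25-fold (log2 fold change 1.17, SE 0.28, edgeR adjusted p = 0.00168). Herc6 was also 2.48-fold higher in Th17 than in Th1 cells (log2 fold change 1.31, SE 0.27, edgeR adjusted p = 0.000929). Of its 50-base words, 23.8% occur in an overlapping predicted gene, so its counts are uncertain. Trim21, a ligase that binds antibody on virus in the cytosol, had 34.8, 37.4, 29.2, 32 and 34.2 CPM in the Tfh libraries, 24.6, 28.8, 18.1, 18 and 19.3 CPM in the Th17 libraries, and 29.3, 26.5, 17.3, 17.8 and 21.5 CPM in the Th1 libraries. It was higher in Tfh than in Th17 cells (log2 fold change 0.62, SE 0.19, edgeR adjusted p = 0.0261) and higher than in Th1 cells (log2 fold change 0.58, SE 0.19, edgeR adjusted p = 0.0149). The first call was lost without Th17 replicate 3, 4 or 5 or Tfh replicate 2 (adjusted p 0.0547 to 0.0728), and the second without Th1 replicate 3 or 4 (0.0504 and 0.058).

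Dtx3l and Parp9 encode partners in one ubiquitin ligase complex. Their exons overlap by 458 bases on opposite strands of chromosome 16, and since the counting is not stated to use strand, reads there cannot be told apart. Dtx3l had 116, 104, 93.8, 92.8 and 93.3 CPM in the Tfh libraries, 92.4, 115, 87.8, 85.1 and 97.6 CPM in the Th17 libraries, and 169.6, 183, 142, 137 and 171 CPM in the Th1 libraries. It was 1.61-fold lower in Tfh than in Th1 cells (log2 fold change -0.69, SE 0.13, edgeR adjusted p = 0.000179). Dtx3l was also 1.68-fold lower in Th17 than in Th1 cells (log2 fold change -0.75, SE 0.13, edgeR adjusted p = 0.000111), without overlap. Parp9 averaged 59.4 ± 7.93 CPM in Tfh, 61 ± 4.49 CPM in Th17 and 90.7 ± 8.88 CPM in Th1 cells and was lower in both comparisons (edgeR adjusted p = 0.000528 and 0.00137). Trim25, a ligase acting on RIG-I, averaged 42.1 ± 6.2 CPM in Tfh, 47.5 ± 2.6 CPM in Th17 and 62 ± 7.47 CPM in Th1 cells. It was lower in Tfh (log2 fold change -0.56, SE 0.14, edgeR adjusted p = 0.00204) and in Th17 than in Th1 cells (log2 fold change -0.39, SE 0.13, edgeR adjusted p = 0.0301), the Th17 call being lost in 5 of 25 alternative settings, including without Th1 replicate 5 or Th17 replicate 1 or 2 (adjusted p 0.0533 to 0.0733). Daxx, a chromatin repressor, averaged 93.9 ± 15.7 CPM in Tfh, 65.9 ± 17.4 CPM in Th17 and 53.7 ± 14.4 CPM in Th1 cells and was higher in Tfh than in Th1 cells (log2 fold change 0.8, SE 0.2, edgeR adjusted p = 0.00326). Its difference between Tfh and Th17 cells was not called (log2 fold change 0.51, SE 0.2, edgeR adjusted p = 0.0991), but it was in 4 of 25 alternative settings, including without Th17 replicate 4 (adjusted p = 0.042). Parp14 averaged 45.9 ± 7.92 CPM in Tfh, 35.2 ± 5.42 CPM in Th17 and 40.5 ± 6.61 CPM in Th1 cells and was not called, except for Tfh over Th17 in the 2 settings with the GC correction.

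All 8 GBPs were lower in Tfh than in Th1 cells, and 6 were lower in Th17 than in Th1 cells. GBPs coat bacteria and parasite vacuoles. Gbp2, Gbp3, Gbp5 and Gbp7 lie together on chromosome 3 and Gbp4, Gbp6, Gbp8 and Gbp9 on chromosome 5. Gbp2 (142620663 to 142638008 on chromosome 3, GRCm38) had 307, 299.7, 215, 210.1 and 158 CPM in the Tfh libraries, 731, 816, 682, 556 and 598 CPM in the Th17 libraries, and 689, 549, 461, 469 and 593 CPM in the Th1 libraries. Tfh libraries stood apart below both other conditions. Gbp2 was 2.32-fold lower in Tfh than in Th1 cells (log2 fold change -1.22, SE 0.18, edgeR adjusted p = 1.44e-05) and 2.85-fold lower than in Th17 cells (log2 fold change -1.51, SE 0.18, edgeR adjusted p = 1.24e-05), whereas Th17 and Th1 cells overlapped (log2 fold change 0.29, SE 0.17, edgeR adjusted p = 0.205).

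Gbp5, which promotes inflammasome assembly, had 64.8, 67.2, 55.2, 49.4 and 40.8 CPM in the Tfh libraries, 199.96, 184, 145, 133 and 145 CPM in the Th17 libraries, and 374, 342, 250.2, 262 and 291 CPM in the Th1 libraries. The conditions did not overlap, with Tfh lowest and Th1 highest. It was 5.48-fold lower in Tfh than in Th1 cells (log2 fold change -2.46, SE 0.17, edgeR adjusted p = 1.15e-09). Gbp5 was also 1.88-fold lower in Th17 than in Th1 cells (log2 fold change -0.91, SE 0.16, edgeR adjusted p = 0.000219). Between the other 2 conditions it was 2.92-fold lower in Tfh than in Th17 cells (log2 fold change -1.54, SE 0.17, edgeR adjusted p = 5.69e-06).

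The chromosome 5 GBPs were low outside Th1 cells. Gbp4 (105115767 to 105139586) had 5.03, 6.36, 4.57, 3.28 and 2.77 CPM in the Tfh libraries, 13.3, 8.36, 4.84, 2.45 and 3.75 CPM in the Th17 libraries, and 91, 61.4, 40, 41.9 and 67.5 CPM in the Th1 libraries. It was 13.9-fold lower in Tfh than in Th1 cells (log2 fold change -3.79, SE 0.4, edgeR adjusted p = 2.94e-07). Gbp4 was also 9.29-fold lower in Th17 than in Th1 cells (log2 fold change -3.22, SE 0.38, edgeR adjusted p = 2.17e-06). Gbp8 had 4.25, 0, 0.654, 0.199 and 0.79 CPM in the Tfh libraries, 0.585, 0.741, 1.36, 0.565 and 0.958 CPM in the Th17 libraries, and 22.6, 28.7, 13.8, 13.9 and 25.4 CPM in the Th1 libraries. Th1 libraries were above all others for both genes. Gbp8 was 20.3-fold lower in Tfh than in Th1 cells (log2 fold change -4.35, SE 0.62, edgeR adjusted p = 1.25e-05). Gbp8 was also 24.1-fold lower in Th17 than in Th1 cells (log2 fold change -4.59, SE 0.62, edgeR adjusted p = 9.42e-06), and without Tfh replicate 1 its Tfh over Th1 value was -5.52. Of its 50-base words, 21.2% occur in other genes.

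Gbp7 averaged 5.37 ± 3.12 CPM in Tfh, 10.8 ± 5.1 CPM in Th17 and 36.8 ± 16.7 CPM in Th1 cells and Gbp3 averaged 16.4 ± 6.21 CPM in Tfh, 21.3 ± 5.5 CPM in Th17 and 31 ± 10.8 CPM in Th1 cells. Gbp7 was lower in Tfh (log2 fold change -2.77, SE 0.4, edgeR adjusted p = 1.27e-05) and in Th17 than in Th1 cells (log2 fold change -1.76, SE 0.38, edgeR adjusted p = 0.00107), and Gbp3 was lower in Tfh than in Th1 cells (log2 fold change -0.93, SE 0.29, edgeR adjusted p = 0.013). Gbp7 was not called between Tfh and Th17 cells (log2 fold change -1.0, SE 0.39, edgeR adjusted p = 0.0886), but it was in 4 of 25 alternative settings, including without Tfh replicate 2 (adjusted p = 0.0274). A predicted gene on the same strand overlaps 11.3% of the exon bases of Gbp7, so its counts are uncertain. Gbp6 averaged 1.14 ± 1.3 CPM in Tfh, 0.359 ± 0.329 CPM in Th17 and 6.32 ± 3.27 CPM in Th1 cells. Gbp9 averaged 1.69 ± 1.11 CPM in Tfh, 1.69 ± 0.974 CPM in Th17 and 6.49 ± 3.5 CPM in Th1 cells, and Gbp6 shares 90.2% of its 50-base words with a predicted gene. Both were lower in Tfh than in Th1 cells (edgeR adjusted p = 0.0144 and 0.0165) and in Th17 than in Th1 cells (0.00139 and 0.0181). Without Th1 replicate 5 the calls of Gbp6 and Gbp9 in Tfh and of Gbp9 in Th17 cells were lost (adjusted p 0.0515 to 0.0552), and without Tfh replicate 1 the Gbp6 value for Tfh over Th1 was -3.36.

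Of the 7 IRGs, 4 were lower and 2 were higher in Tfh than in Th1 cells, and 3 were lower and 2 were higher in Th17 than in Th1 cells. The called shares were 85.7% and 71.4%, beside 49.3% and 36.9% of all genes tested. Igtp, also called Irgm3, guards the cell's own membranes and had 57, 61.3, 69.6, 71.4 and 57.1 CPM in the Tfh libraries, 123, 128, 110.4, 123 and 114 CPM in the Th17 libraries, and 715, 625, 642, 592 and 569.7 CPM in the Th1 libraries. Each condition formed its own range, and 11.8% of the gene's 50-base words also occur in Irgm2. Igtp was 9.92-fold lower in Tfh than in Th1 cells (log2 fold change -3.31, SE 0.12, edgeR adjusted p = 9.32e-14). Igtp was also 5.25-fold lower in Th17 than in Th1 cells (log2 fold change -2.39, SE 0.11, edgeR adjusted p = 6.3e-12). Between the other 2 conditions it was 1.89-fold lower in Tfh than in Th17 cells (log2 fold change -0.92, SE 0.11, edgeR adjusted p = 1.31e-05). Iigp1 (Irga6), an effector that loads onto vacuoles, had 0, 0.565, 0.654, 0.597 and 0.494 CPM in the Tfh libraries, 1.29, 1.48, 0.68, 0.471 and 1.39 CPM in the Th17 libraries, and 43.9, 27.6, 12.4, 17.3 and 33 CPM in the Th1 libraries. It was 52.1-fold lower in Tfh than in Th1 cells (log2 fold change -5.7, SE 0.47, edgeR adjusted p = 1.25e-08). Iigp1 was also 25.1-fold lower in Th17 than in Th1 cells (log2 fold change -4.65, SE 0.43, edgeR adjusted p = 8.07e-08), without overlap.

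Irgm2 and Irgm1 are the other membrane guards. Irgm2 had 26.7, 28.8, 23.4, 24.6 and 29 CPM in the Tfh libraries, 23.1, 27.4, 19.7, 20.3 and 26.9 CPM in the Th17 libraries, and 70.9, 65.5, 71, 66.8 and 67.9 CPM in the Th1 libraries. It was 2.58-fold lower in Tfh than in Th1 cells (log2 fold change -1.37, SE 0.14, edgeR adjusted p = 1.29e-07). Irgm2 was also 2.91-fold lower in Th17 than in Th1 cells (log2 fold change -1.54, SE 0.14, edgeR adjusted p = 4.25e-08). Irgm1 had 65.7, 76.8, 64.4, 67 and 69.8 CPM in the Tfh libraries, 82.3, 78.7, 78.9, 67.9 and 66.7 CPM in the Th17 libraries, and 68.3, 65.1, 75.1, 74.5 and 89.1 CPM in the Th1 libraries. Its libraries overlapped throughout and it was not called in Tfh over Th17, Tfh over Th1 or Th17 over Th1, with log2 fold changes of -0.12 ± 0.12 (SE), -0.12 ± 0.12 (SE) and 0.01 ± 0.12 (SE). 

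Ifi47 (Irgd) was high where Igtp was low. It lies on chromosome 11 at 49076587 to 49096987 and had 433, 412, 442, 351 and 386 CPM in the Tfh libraries, 367, 386, 343, 303 and 341 CPM in the Th17 libraries, and 122, 137, 116, 98.3 and 141 CPM in the Th1 libraries. All Th1 libraries were below all others. Ifi47 was higher in Tfh than in Th1 cells, by 3.3-fold (log2 fold change 1.72, SE 0.12, edgeR adjusted p = 1.25e-09). Ifi47 was also 2.84-fold higher in Th17 than in Th1 cells (log2 fold change 1.5, SE 0.12, edgeR adjusted p = 1.2e-08). Its exons overlap those of Olfr56 over 4.49% of their bases on the same strand.

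Tgtp1 and Tgtp2 (both Irgb6 genes) are near-identical neighbours of Ifi47, sharing 79.4% of the 50-base words of Tgtp1 and 89.8% of those of Tgtp2, so how reads were divided between them is uncertain. Tgtp2 had 27.3, 31.1, 22.6, 18 and 23.4 CPM in the Tfh libraries, 29.4, 34.1, 26.5, 18.2 and 21.3 CPM in the Th17 libraries, and 9.53, 8.61, 4.49, 5.44 and 8.34 CPM in the Th1 libraries. It was higher in Tfh than in Th1 cells, by 3.39-fold (log2 fold change 1.76, SE 0.24, edgeR adjusted p = 7.93e-06). Tgtp2 was also 3.59-fold higher in Th17 than in Th1 cells (log2 fold change 1.84, SE 0.24, edgeR adjusted p = 7.28e-06). Tgtp1 averaged 12.8 ± 4.7 CPM in Tfh, 14.4 ± 6.13 CPM in Th17 and 22.1 ± 7.9 CPM in Th1 cells, the other direction, and was lower in Tfh than in Th1 cells (log2 fold change -0.78, SE 0.31, edgeR adjusted p = 0.0461). That call was lost in 8 of 25 alternative settings, including without Tfh replicate 1, 3 or 4, Th17 replicate 2 or Th1 replicate 1 or 2 (adjusted p 0.0533 to 0.132). Tgtp1 was also lower in Th17 than in Th1 cells in 2 of 25 settings, of which 1 left out Th17 replicate 5 (adjusted p = 0.0224). Summed over both copies, the level was 37.3 ± 7.76 CPM in Tfh, 40.3 ± 7.40 CPM in Th17 and 29.4 ± 9.71 CPM in Th1 cells (SD, n = 5 each), ranges that overlap.

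**Figure D3:**
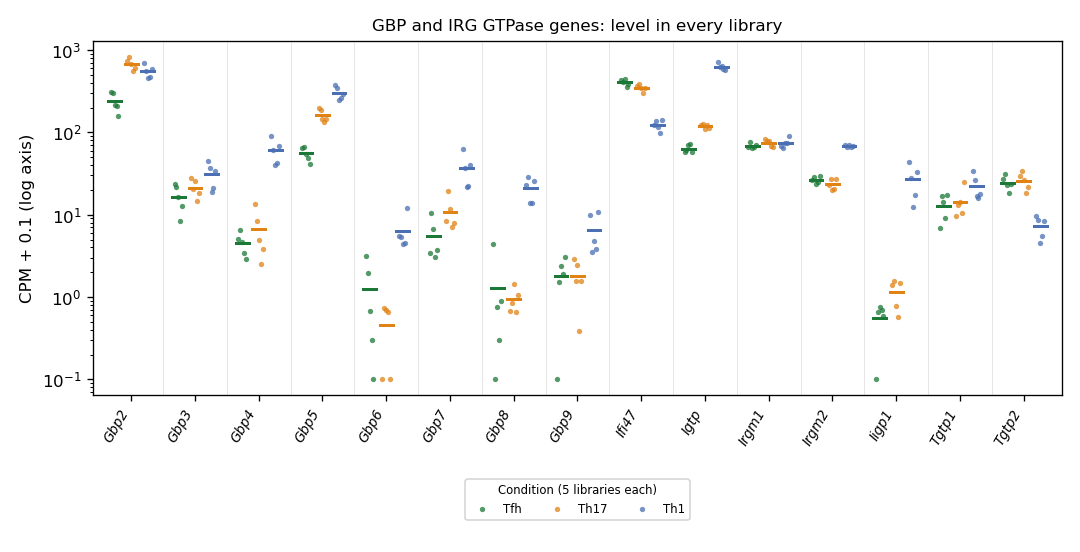
Levels of the 15 GTPase genes in each of the 15 libraries, as CPM plus 0.1 on a log axis; points are libraries, bars are means, and colours mark Tfh, Th17 and Th1 cells. Igtp, Iigp1, Gbp4 and Gbp8 were highest in Th1 cells, Ifi47 and Tgtp2 were lowest there, Gbp2 was low in Tfh cells, and the Irgm1 libraries overlapped.

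Of the antigen presentation genes, the peptide transporter Tap1 and the class I transactivator Nlrc5 were lower outside Th1 cells. Tap1 had 103, 66.4, 96.1, 84.4 and 84.2 CPM in the Tfh libraries, 73.1, 82.9, 84.6, 114 and 88.3 CPM in the Th17 libraries, and 207, 278, 346, 329.8 and 278 CPM in the Th1 libraries. It was 3.32-fold lower in Tfh than in Th1 cells (log2 fold change -1.73, SE 0.16, edgeR adjusted p = 6.47e-08). Tap1 was also 3.25-fold lower in Th17 than in Th1 cells (log2 fold change -1.7, SE 0.16, edgeR adjusted p = 1.23e-07). Nlrc5 had 59.5, 26.3, 26.1, 29.6 and 26.5 CPM in the Tfh libraries, 21.5, 21.5, 19.9, 22.1 and 24.3 CPM in the Th17 libraries, and 88.9, 107, 116, 129 and 92.3 CPM in the Th1 libraries. Tfh replicate 1 was high among Tfh libraries, yet all Th1 libraries were higher still. Nlrc5 was 3.2-fold lower in Tfh than in Th1 cells (log2 fold change -1.68, SE 0.21, edgeR adjusted p = 2.39e-06). Nlrc5 was also 4.88-fold lower in Th17 than in Th1 cells (log2 fold change -2.29, SE 0.21, edgeR adjusted p = 9.43e-08). Between Tfh and Th17 cells its libraries did not overlap but it was not called (log2 fold change 0.61, SE 0.21, edgeR adjusted p = 0.0529). It was called in 12 of 25 alternative settings, including DESeq2, other scalings and leaving out Th1 replicate 1 or 4 or Tfh replicate 2, 3 or 5 (adjusted p 0.0377 to 0.0491).

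Tapbp, which encodes the peptide-loading chaperone tapasin, had 281, 175, 189.8, 260.5 and 196 CPM in the Tfh libraries, 143, 146, 173, 222 and 171 CPM in the Th17 libraries, and 117, 136, 197, 188 and 141 CPM in the Th1 libraries. It was higher in Tfh than in Th1 cells with overlapping libraries (log2 fold change 0.5, SE 0.18, edgeR adjusted p = 0.0256), and without Th1 replicate 1, 2 or 5 or Tfh replicate 1 or 4 the call was lost (adjusted p 0.0606 to 0.0747). Of its exon bases 24.9% overlap a gene on the opposite strand, as do 14.1% of those of Tap2, so reads there cannot be told apart. Tap2, the transporter's other chain, averaged 32 ± 6.31 CPM in Tfh, 30.4 ± 4.53 CPM in Th17 and 42.1 ± 9.35 CPM in Th1 cells and was not called between Tfh and Th1 (log2 fold change -0.4, SE 0.18, edgeR adjusted p = 0.0834) or Th17 and Th1 cells (log2 fold change -0.47, SE 0.18, edgeR adjusted p = 0.0545). In 5 of 25 alternative settings, including without Th1 replicate 1 or Tfh replicate 1, it was lower in Tfh than in Th1 cells (adjusted p 0.0144 and 0.0486). In 14 of 25 settings, including without Th1 replicate 1, Th17 replicate 4 or 5 or Tfh replicate 1, 2, 3 or 5, it was lower in Th17 than in Th1 cells (adjusted p 0.00884 to 0.0487).

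Between Tfh and Th17 cells, 10 of the 45 members tested were called (2 higher and 8 lower in Tfh), or 22.2%, beside 16.8% of all genes tested (6.8% higher and 9.98% lower). That share is close to the background and is no result about the group. Of 26 antiviral genes, 2 were higher and 5 were lower (median log2 fold change -0.02), and of 15 GTPases 3 were lower and none was higher (median -0.16). None of the 4 antigen presentation genes was called (median 0.22). Over all genes the median was -0.01. Libraries did not overlap for 8 of the 45, of which 2 were higher in Tfh (5.74% of all genes) and 6 were lower (8.72% of all genes). The GTPases called, Gbp2, Gbp5 and Igtp, and the antiviral genes Ly6a and Oas3 had libraries without overlap, and their calls held without any 1 library. The Oas3 call was lost with limma-voom. Ifih1 was also lower in Tfh (log2 fold change -1.43, SE 0.38, edgeR adjusted p = 0.0141), but not with limma-voom or without Th17 replicate 5 (log2 fold change -0.98, adjusted p = 0.0657).

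**Figure D4:**
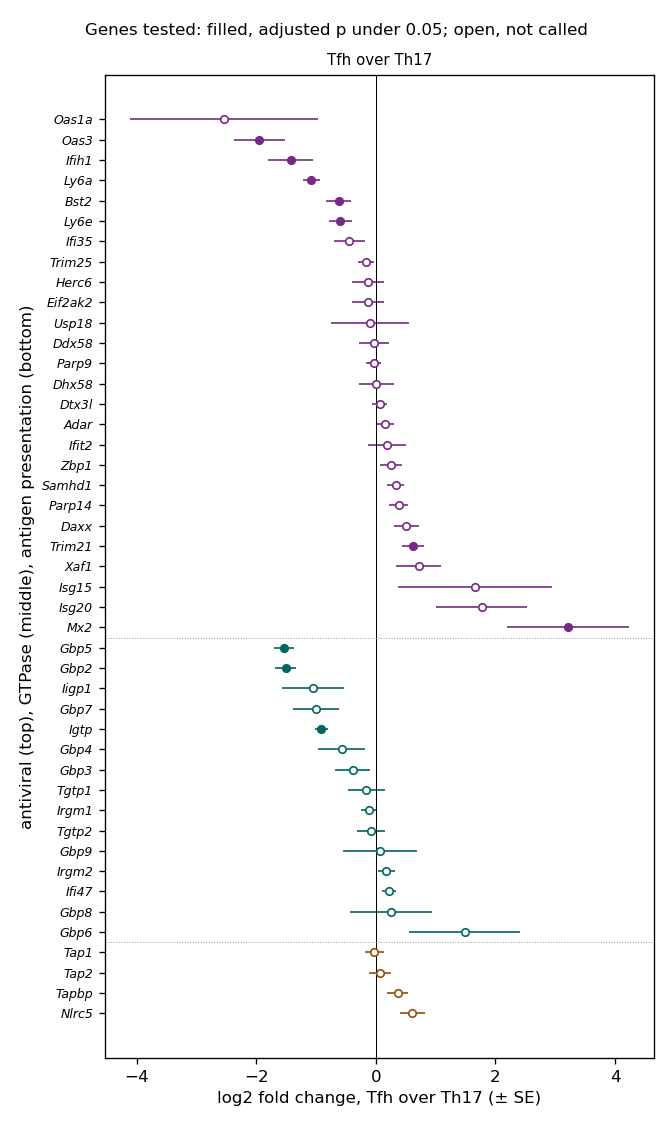
Log2 fold changes of the 45 members tested, Tfh over Th17, with the standard error as a bar; filled points passed the edgeR test at an adjusted p under 0.05. Most points lie near 0 and are open. Of the filled points, Gbp5, Gbp2, Igtp, Ly6a, Oas3 and Ifih1 lie furthest left and Mx2 furthest right. Some open points also lie far out, with Oas1a, Iigp1 and Gbp7 to the left and Isg20, Isg15 and Gbp6 to the right.

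By size, 37 of the 55 members reached a mean of 10 CPM in some condition and 12 reached 100 CPM. Summed over the 36 antiviral genes, the level was 2969.8 to 3509 CPM in Tfh, 3493 to 4473 CPM in Th17 and 5946 to 7815 CPM in Th1 libraries. Over the 15 GTPases it was 804 to 1036 CPM in Tfh, 1257 to 1720.4 CPM in Th17 and 1708 to 2363 CPM in Th1 libraries, and over the 4 antigen presentation genes it was 293 to 483 CPM in Tfh, 264 to 392 CPM in Th17 and 439.8 to 706 CPM in Th1 libraries. The antiviral and GTPase sums of Th1 libraries were above those of Tfh libraries in every case, and the antiviral sums above those of Th17 libraries too. Ly6a, Samhd1 and Ly6e made up 76.8 to 80.9% of the antiviral sum in Tfh, 82.9 to 86.1% in Th17 and 83.4 to 86.8% in Th1 libraries, so that sum mostly follows these 3 genes. In Tfh and Th17 libraries the GTPase sum leaned on Gbp2 and Ifi47. Gbp2 averaged 238 CPM in Tfh and 677 CPM in Th17 cells, and Ifi47 405 and 348 CPM. Between these 2 conditions 12 of the 15 GTPases were not called. By mean level, 32 of the 45 members tested were highest in Th1 cells, 5 in Th17 cells and 8 in Tfh cells, whether or not the difference was called.

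To compare genes with one another, levels were divided by exon length in kb. On that scale Ly6a led the antiviral genes, with 471 ± 51.1 CPM per kb in Tfh, 1001 ± 162 in Th17 and 2200.1 ± 390.0 in Th1 cells (SD, n = 5 each). Ly6e followed at 198 ± 33.5 CPM per kb in Tfh, 299 ± 59 in Th17 and 274 ± 93.7 in Th1 cells, and Samhd1 at 134 ± 22.6 CPM per kb in Tfh, 107 ± 19.8 in Th17 and 229.6 ± 20.8 in Th1 cells. The leading GTPase differed by condition. Ifi47 stood at 164 ± 15 CPM per kb in Tfh, 141 ± 12.7 in Th17 and 49.7 ± 6.88 in Th1 cells, Gbp2 at 94.6 ± 25.4 CPM per kb in Tfh, 269 ± 41.3 in Th17 and 219.5 ± 37.5 in Th1 cells and Igtp at 31.3 ± 3.38 CPM per kb in Tfh, 59.2 ± 3.53 in Th17 and 311 ± 27.7 in Th1 cells. The order from high to low was thus Ifi47, Gbp2, Igtp in Tfh cells, Gbp2, Ifi47, Igtp in Th17 cells and Igtp, Gbp2, Ifi47 in Th1 cells.

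Genes of the interferon pathway itself were read from lists of ligands, receptors, signal transducers and others. Their counts stand beside 49.3% of all genes called for Tfh over Th1, 36.9% for Th17 over Th1 and 16.8% for Tfh over Th17, and in the small lists nothing is read from counts near these shares. Of 9 interferon ligand genes only Ifng passed the filter, and since Th1 cells were sorted on interferon gamma its level is no finding. Ifng averaged 0.341 ± 0.295 CPM in Tfh, 0.51 ± 0.322 CPM in Th17 and 839.9 ± 136 CPM in Th1 cells. Of 6 receptor genes, 2 were higher and 1 was lower in Tfh than in Th1 cells, 1 was higher and 2 were lower in Th17 than in Th1 cells, and 3 were higher in Tfh than in Th17 cells with none lower. These are 3 of 6 (50%) in each comparison. Ifngr2, the signalling chain of the interferon gamma receptor, had 117, 125, 149, 162 and 123 CPM in the Tfh libraries, 73.3, 82.6, 78.6, 98.7 and 87.1 CPM in the Th17 libraries, and 10.7, 14.7, 12.2, 16.5 and 9.54 CPM in the Th1 libraries. It was higher in Tfh than in Th1 cells, by 10.6-fold (log2 fold change 3.41, SE 0.17, edgeR adjusted p = 9.63e-12). Ifngr2 was also 6.59-fold higher in Th17 than in Th1 cells (log2 fold change 2.72, SE 0.17, edgeR adjusted p = 2.53e-10), an order opposite to that of most members.

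Ifnar1 and Ifnar2 encode the type I receptor. Ifnar1 averaged 126 ± 15.2 CPM in Tfh, 90 ± 6.63 CPM in Th17 and 137 ± 10.3 CPM in Th1 cells and Ifnar2 averaged 124 ± 16.7 CPM in Tfh, 90.5 ± 6.99 CPM in Th17 and 87.7 ± 7.99 CPM in Th1 cells. Both were higher in Tfh than in Th17 cells (edgeR adjusted p = 0.00646 and 0.0146). Ifnar1 was lower in Th17 than in Th1 cells (log2 fold change -0.6, SE 0.11, edgeR adjusted p = 0.000363) and Ifnar2 was higher in Tfh than in Th1 cells (log2 fold change 0.5, SE 0.12, edgeR adjusted p = 0.00233). Ifnlr1, the lambda receptor chain, had 0 counts in Tfh, 3 in Th17 and 281 in Th1 libraries, at least 62.6-fold lower in Tfh than in Th1 cells.

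Of 8 signal transducers, 2 were higher and 3 lower in Tfh than in Th1 cells, 1 was higher and 6 were lower in Th17 than in Th1 cells, and 3 were higher in Tfh than in Th17 cells with none lower. The called share was 62.5%, 87.5% and 37.5% in that order. Irf1, an interferon-induced activator, had 36.3, 47.3, 45.6, 51 and 48.3 CPM in the Tfh libraries, 39, 37.2, 32.3, 38.3 and 28.5 CPM in the Th17 libraries, and 102, 138, 144, 141 and 133 CPM in the Th1 libraries. It was 2.87-fold lower in Tfh than in Th1 cells (log2 fold change -1.52, SE 0.14, edgeR adjusted p = 5.28e-08). Irf1 was also 3.76-fold lower in Th17 than in Th1 cells (log2 fold change -1.91, SE 0.14, edgeR adjusted p = 4.35e-09). Stat2 averaged 51.2 ± 8.94 CPM in Tfh, 52.4 ± 4.75 CPM in Th17 and 101 ± 13.1 CPM in Th1 cells and was lower in Tfh and in Th17 than in Th1 cells (edgeR adjusted p = 1.44e-05 and 3.43e-05). Jak1, the kinase that both interferon types use, averaged 543 ± 48.5 CPM in Tfh, 383 ± 42.1 CPM in Th17 and 220.2 ± 17.7 CPM in Th1 cells and was higher in Tfh (log2 fold change 1.3, SE 0.11, edgeR adjusted p = 1.54e-08) than in Th1 cells. Irf7, which amplifies type I interferon, averaged 8.58 ± 2.13 CPM in Tfh, 2.73 ± 0.725 CPM in Th17 and 11.7 ± 4.43 CPM in Th1 cells and was 3.13-fold higher in Tfh than in Th17 cells (log2 fold change 1.64, SE 0.3, edgeR adjusted p = 0.000869). It was lower in Th17 than in Th1 cells as well (log2 fold change -2.09, SE 0.3, edgeR adjusted p = 2.03e-05). Irf9 was also higher in Tfh than in Th17 cells (log2 fold change 0.46, SE 0.12, edgeR adjusted p = 0.0154).

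**Figure D5:**
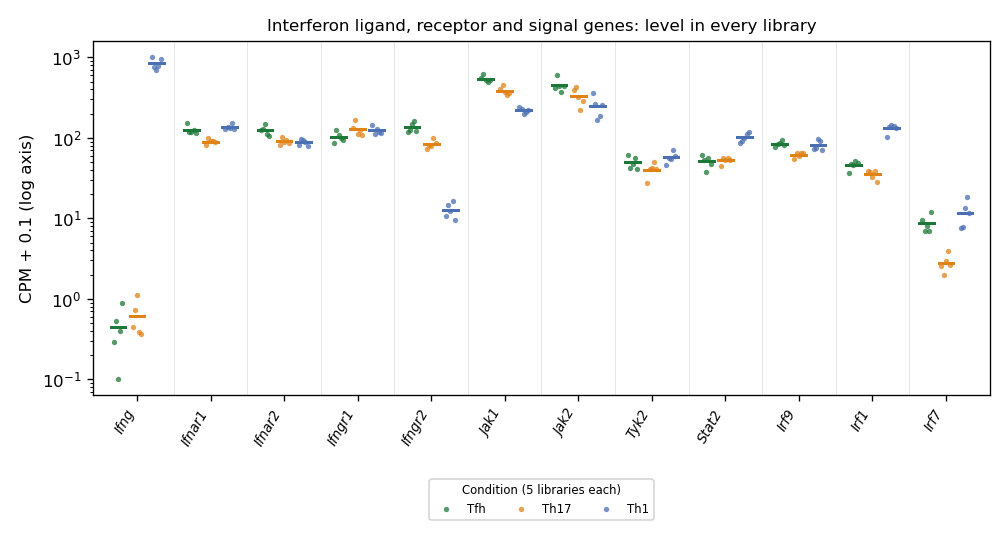
Levels of 12 interferon ligand, receptor and signal genes in each of the 15 libraries, as CPM plus 0.1 on a log axis; points are libraries, bars are means, and colours mark Tfh, Th17 and Th1 cells. Ifngr2 and Jak1 were lowest in Th1 cells, Irf1 and Stat2 were highest there, and Irf7 was lowest in Th17 cells.

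Of 8 inhibitors of interferon signalling, 3 were higher and 1 was lower in Tfh than in Th1 cells, 1 was higher in Th17 than in Th1 cells, and 2 were higher in Tfh than in Th17 cells. The called share was 50%, 12.5% and 25.0% in that order, near or below that of all genes for the comparisons with Th1 cells. Irf2, a repressor of interferon-stimulated genes, averaged 172 ± 31.5 CPM in Tfh, 111 ± 5.02 CPM in Th17 and 95.9 ± 9.25 CPM in Th1 cells and was higher in Tfh than in Th1 (log2 fold change 0.84, SE 0.13, edgeR adjusted p = 3.79e-05) and Th17 cells (log2 fold change 0.63, SE 0.13, edgeR adjusted p = 0.00269). Ptpn6 and Ptpn2 are phosphatases and Pias1 restrains STAT proteins. Ptpn6 was higher in Tfh than in Th17 and in Th1 cells (edgeR adjusted p = 0.0115 and 0.0156), and Ptpn2 was lower in Tfh than in Th1 cells (0.00936). Pias1 was higher in Tfh and in Th17 than in Th1 cells (edgeR adjusted p = 0.00271 and 0.00192). Of 10 nucleic acid sensing adaptors 8 were tested, and 25.0% of them were called for Tfh over Th1 and 12.5% for Th17 over Th1, both below the share of all genes. Sting1 averaged 316 ± 37 CPM in Tfh, 309 ± 41.9 CPM in Th17 and 566 ± 84.2 CPM in Th1 cells and was lower in Tfh and in Th17 than in Th1 cells (edgeR adjusted p = 2.99e-05 and 3.19e-05), and Ticam1 was higher in Tfh than in Th1 cells (log2 fold change 0.95, SE 0.28, edgeR adjusted p = 0.00806).

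A further list held 43 interferon-induced genes that are not among the 55. Of the 31 tested, 8 were higher and 12 lower in Tfh than in Th1 cells (median log2 fold change -0.25), 5 were higher and 15 lower in Th17 than in Th1 cells (median -0.56), and 6 were higher and 1 lower in Tfh than in Th17 cells (median 0.34). The called share was 64.5% in both comparisons with Th1 cells and 22.6% between Tfh and Th17 cells. Most of the genes called against Th1 cells were lower in Tfh and in Th17 cells. Epsti1 was among these, at 10.2 ± 3.92 CPM in Tfh, 8.16 ± 1.83 CPM in Th17 and 81.8 ± 10.5 CPM in Th1 cells, with log2 fold changes of -2.99 ± 0.23 (SE) for Tfh over Th1 and -3.33 ± 0.24 (SE) for Th17 over Th1 (edgeR adjusted p = 5.19e-09 and 2.21e-09). Cd274, which encodes the checkpoint ligand PD-L1, averaged 12.1 ± 3.01 CPM in Tfh, 11.5 ± 1.1 CPM in Th17 and 75.6 ± 12.9 CPM in Th1 cells and was lower in both as well (edgeR adjusted p = 1.15e-09 and 1.25e-09). The genes of largest change included some that were higher outside Th1 cells. Slfn1, a growth regulator of T cells, averaged 115 ± 29.6 CPM in Tfh, 37 ± 6.03 CPM in Th17 and 12.1 ± 1.71 CPM in Th1 cells, higher in Tfh than in Th17 (log2 fold change 1.63, SE 0.18, edgeR adjusted p = 7.72e-06) and Th1 cells (log2 fold change 3.24, SE 0.2, edgeR adjusted p = 1.46e-10). Ifi203 followed the same order at 9.55 ± 4.99 CPM in Tfh, 2.77 ± 2.26 CPM in Th17 and 0.203 ± 0.193 CPM in Th1 cells, with log2 fold changes of 1.79 ± 0.54 (SE) for Tfh over Th17 and 5.33 ± 0.68 (SE) for Tfh over Th1 (edgeR adjusted p = 0.0287 and 3.27e-06). Slfn5 was higher in Tfh than in Th17 cells (log2 fold change 1.27, SE 0.33, edgeR adjusted p = 0.0122). Trim30d averaged 3.15 ± 1.09 CPM in Tfh, 1.65 ± 0.386 CPM in Th17 and 17.3 ± 6.68 CPM in Th1 cells and was lower in Th17 than in Th1 cells (log2 fold change -3.37, SE 0.34, edgeR adjusted p = 2.51e-07). Ciita, the MHC class II transactivator, had 76 counts in Tfh, 36 in Th17 and 0 in Th1 libraries, at least 37.9-fold higher in Tfh and at least 15.2-fold higher in Th17 than in Th1 cells. Tfh replicate 5 held 40 of the 76 Tfh counts, and without it the bound was 23.2-fold.

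Of the markers of other cell types, the sums of the myeloid and dendritic list and of the NK list were higher in every Th1 library than in any other library, at low levels, and so was the CD8 marker Cd8a. Some single markers of these lists went the other way. The summed level of 11 myeloid and dendritic cell markers was 2.86 to 5.24 CPM in Tfh, 2.21 to 6.56 CPM in Th17 and 13.3 to 28.8 CPM in Th1 libraries, and 2 of the 11 passed the filter. Csf1r, Zbtb46 and Siglech were at 0 in Tfh cells, Lyz2, Itgam, Flt3 and Siglech in Th17 cells, and Lyz2, Itgax and Siglech in Th1 cells. Cd68 and Zbtb46 carried the sum, at 10.7 and 8.83 CPM in Th1 cells. Over the Tfh, Th17 and Th1 libraries Itgam had 21, 0 and 3 counts and Csf1r had 0, 32 and 1. The summed level of 5 NK and innate lymphocyte markers was 0.398 to 2.51 CPM in Tfh, 0.234 to 1.98 CPM in Th17 and 21.9 to 52.7 CPM in Th1 libraries, led by Klrk1, with Ncr1 at 0 in Th1 cells and Klrb1c at 21, 21 and 0 counts over the Tfh, Th17 and Th1 libraries. Over 2 CD8 T cell markers it was 5.22 to 11.3 CPM in Tfh, 6.19 to 16 CPM in Th17 and 7.29 to 26.1 CPM in Th1 libraries. Of these, Cd8a had 0 counts over the Tfh, 12 over the Th17 and 389 over the Th1 libraries, at least 86.7-fold lower in Tfh than in Th1 cells. Over 6 B cell markers it was 58.2 to 114 CPM in Tfh, 34.1 to 65.7 CPM in Th17 and 75.1 to 130.5 CPM in Th1 libraries, nearly all from Ighm, with Ms4a1 and Pax5 at 0 in Tfh and Th17 cells and Pax5 at 0 in Th1 cells. The 8 T cell markers summed to 6849 to 9222 CPM in Tfh, 6289.9 to 7092 CPM in Th17 and 4102 to 5199.6 CPM in Th1 libraries. The part of these markers in the results above was not tested.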

How the data were processed

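RNA of sorted CD4 T cells was sequenced in 15 libraries, 5 in each of 3 conditions. The authors deposited raw gene counts by Entrez ID, made with STAR 2.7.2b and featureCounts 1.6.4 on mm10 per the submitters' processing notes. The sources do not state the annotation or how strand and reads with several matches were handled. Counts in genes with a RefSeq symbol made up 98.2% of all counts, and the 15 single-sample files equal their columns of the series table. Members were found by symbol. Members and lists were chosen with earlier results of these data known.

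The counts were fitted with edgeR 4.0.16 in R 4.3.3 (filterByExpr, TMM scaling, robust quasi-likelihood test) in 1 model of all 15 libraries, which left 12591 genes and put 5472 others with counts under the filter. The method was tested on simulated data. The standard error was the log2 fold change divided by the root of F. Levels are CPM on TMM-scaled sizes, and CPM per kb uses exon length from GENCODE release 21 of the mouse. At these depths 3 counts in a library equal 0.119 to 0.616 CPM. Folds against a condition without counts used a floor of 3 counts over the condition. Replicates differed beyond sampling noise in every pair, with a chi-square per gene of at least 9.40. Shared sequence is the share of 50-base words of a gene's transcripts found in other genes.

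Values in every library are given, per role, for the member with the highest mean CPM and, per comparison, up to 2 called members of largest change that reach 10 CPM without overlap, and for 1 called member that moved against its class. Isg15, Irgm1, Irgm2 and the members given by means were added after their values were seen. Of the pathway lists, up to 3 called genes of largest change per comparison were named, with Epsti1 and Cd274 added after their values were seen. Alternatives were limma-voom (limma 3.58.1), DESeq2 1.42.0, other scalings and filters, the replicate number as a block, each library left out in turn, and a correction for GC content, which was added after seeing the data.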

Additional observations from a re-analysis of the deposited data

Results flagged for a closer look

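The named members that reached 10 CPM in a condition gave 53 sets of 5 libraries, of which 3 held a library far from the other 4. Chance alone marks about 1 in 20 such sets. Samhd1 was high in Tfh replicate 2, at 1578 CPM, where the other Tfh libraries held 1031 to 1182 CPM. Samhd1 was also high in Th17 replicate 2, at 1294 CPM, where the other Th17 libraries held 874 to 949 CPM. Nlrc5 was high in Tfh replicate 1, at 59.5 CPM, where the other Tfh libraries held 26.1 to 29.6 CPM. The cause was not tested.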

How the results depend on the processing

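Between Tfh and Th1 cells, 21 antiviral genes and 14 GTPases were called, and leaving out 1 library gave 18 to 22 and 12 to 14. Between Th17 and Th1 cells, 17 and 11 were called, and leaving out 1 library gave 15 to 18 and 10 to 12. The Tfh and Th17 comparison was less steady. Its 7 antiviral calls became 3 with limma-voom and 2 to 7 without 1 library, and its 3 GTPase calls became 5 with the GC correction, with or without the replicate block. All genes called there numbered 2113, against 3386 with the GC correction and 3957 with the GC correction and the replicate block. The cause was not tested. Over the named genes, no called value changed sign under any alternative run for it (at most 25). Values that were not called did in some. Without 1 library, log2 fold changes for Tfh over Th17 were -0.17 to 0.125 for Dhx58, -0.175 to 0.033 for Tgtp2, -0.776 to 0.436 for Usp18, -0.097 to 0.09 for Tap1, -0.259 to 0.041 for Herc6 and -0.933 to 0.561 for Gbp8. For Th17 over Th1 they were -0.167 to 0.066 for Trim21, -0.029 to 0.281 for Ly6e, -0.015 to 0.208 for Tapbp and -0.163 to 0.838 for Isg20. For Tfh over Th17, Tap1 was 0.006 with total count scaling, Usp18 was 0.022 with DESeq2 and Gbp8 was -0.763 with limma-voom. Same-numbered libraries correlated at -0.102 to 0.57, not all above 0.1. Differently numbered libraries ranged from -0.516 (Th17 replicate 4 and Th1 replicate 1) to 0.615 (Th17 replicate 4 and Th1 replicate 3). Whether the numbers mark a batch is not known. With the replicate number as a block, antiviral calls were 8, 22 and 19 and GTPase calls 4, 14 and 12 for Tfh over Th17, Tfh over Th1 and Th17 over Th1. Depth limits the 10 members under the filter, for which differences were not tested in the main fit.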
